A study of Hymenochirus boettgeri with 8 samples.

Results

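In the dwarf clawed frog Hymenochirus boettgeri, 35 of 145306 assembly genes were abundant in poly-A RNA of every egg and 8-cell library and close to absent from every later library. They were chosen by level: at least 20 TPM in both unfertilized egg and both 8-cell libraries, and under 1 TPM in both libraries of Nieuwkoop and Faber (NF) stage 26 and both libraries of swimming tadpoles. TPM is a share: it gives a transcript's part of its library after scaling for length, and was summed over the transcripts of one assembly gene. The series has 2 libraries for each of these 4 stages, made from whole wild-type eggs, embryos or tadpoles with no treatment. The labels name no parents or clutches, so the spread between the 2 libraries of a stage may be biological or technical. The genes carry assembly identifiers with no gene name. They are therefore called below by their rank in mean TPM over the 4 egg and 8-cell libraries, from 1 to 35, and 6 of them also by identifier. The difference between the early libraries (egg and 8-cell) and the late libraries (stage 26 and tadpole) chose these genes, so it is described here and not tested.

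A frog egg is stocked during oogenesis with maternal mRNA, which directs cleavage while the embryo's own genome is largely silent. After the genome is switched on at the midblastula transition, many maternal mRNAs lose their poly-A tail and are degraded, while others persist or are made again by the embryo. In Xenopus, mRNAs also gain or lose poly-A tails in the egg and early embryo without a change in their number. Poly-A capture therefore reports tailed mRNA, and loss of the tail and loss of the mRNA cannot be told apart in these libraries. In whole embryos, fewer cells that hold an mRNA and less of it per cell cannot be told apart either. The genes are called maternal because the rule requires them in unfertilized eggs; whether the late traces are leftover or newly made RNA was not measured.

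The 2 egg libraries stood apart from each other, and this touches most values below. Egg replicate 1 had 69245 transcripts above 0 and egg replicate 2 had 104166, against 108840 and 116393 in the 8-cell libraries, 167602 and 155589 at stage 26, and 169080 and 170235 in tadpoles. Read totals are not given in the table, so no counting error can be put on a single value or on a value of 0.

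A fall to under 1 TPM was the exception among abundant early genes. Of the 2636 assembly genes at 20 TPM or more in all 4 early libraries, the 35 made up 1.33%. Another 14 genes reached 1 to under 2 TPM in their highest late library, 54 reached 2 to under 5 TPM, and 154 reached 5 to under 10 TPM. The largest class, 796 genes (30.2%), reached 100 TPM or more. The 35 thus lie at the sparse low end of a broad range of late levels, and the limit of 1 TPM does not fall in an empty gap. Over all 2636 genes, the median late mean was 30.6% of the early mean. Among the 35 genes it was 0.0352%, which the choice itself sets. A late mean under 1% of the early mean was found for 56 of the 2636 genes, 34 of the 35 and 22 others. Under the same limits turned round, 231 of 2475 genes (9.33%) at 20 TPM or more in all 4 late libraries were under 1 TPM in all 4 early ones.

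**Figure D1:**
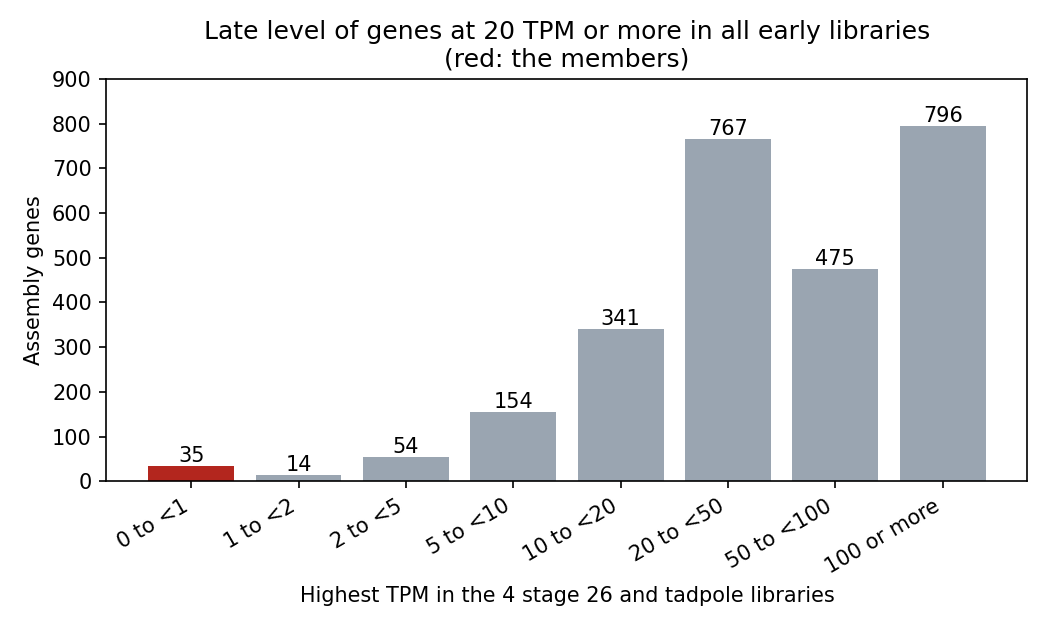
Number of assembly genes (vertical axis) by their highest TPM in the 4 stage 26 and tadpole libraries (horizontal axis, classes of unequal width), for the 2636 genes at 20 TPM or more in every egg and 8-cell library. The red bar holds the 35 cleared genes, the next class 14 genes, and the last class 796.

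The early means of the genes ran from 34.8 to 1926 TPM, with a median of 119.5 TPM, against a median of 85.7 TPM over the 2636 abundant early genes. By early mean, the cleared genes were 4 of 667 genes at 20 to under 50 TPM, 11 of 843 at 50 to under 100 TPM, 8 of 541 at 100 to under 200 TPM, 6 of 364 at 200 to under 500 TPM and 6 of 221 at 500 TPM or more. The 3 with the highest early mean were among the 100 most abundant early genes, the first of them at place 47. From the lowest to the highest class of early mean, the shares were 0.60%, 1.30%, 1.48%, 1.65% and 2.71%, and their rise was not tested. Loss below 1 TPM was thus found in each of these classes, and a high early mean needs a larger fall to reach the same limit.

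Summed over the 35 genes, the RNA was a small but measurable share of the early libraries and nearly nothing later. The sum was 20741 and 5691 TPM in eggs, 8397 and 8915 TPM in 8-cell embryos, 4.46 and 7.35 TPM at stage 26, and 3.27 and 5.06 TPM in tadpoles. This was 1.33% ± 1.06 of the deposited TPM in eggs and 0.867% ± 0.0369 in 8-cell embryos (mean ± SD, n = 2 each). The 2 egg sums differed far more than the 2 8-cell sums, which lie between them. This pattern rests on where the late limit falls. A gene left out at 1.035 TPM in stage 26 replicate 2 had 402 and 24179 TPM in eggs and 714 and 9422 TPM in 8-cell embryos. In replicate 2 of either early stage that gene alone exceeded the sum of the 35. In each early library, the 3 highest of the 35 genes held 40.5% to 54.1% of the sum.

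**Figure D2:**
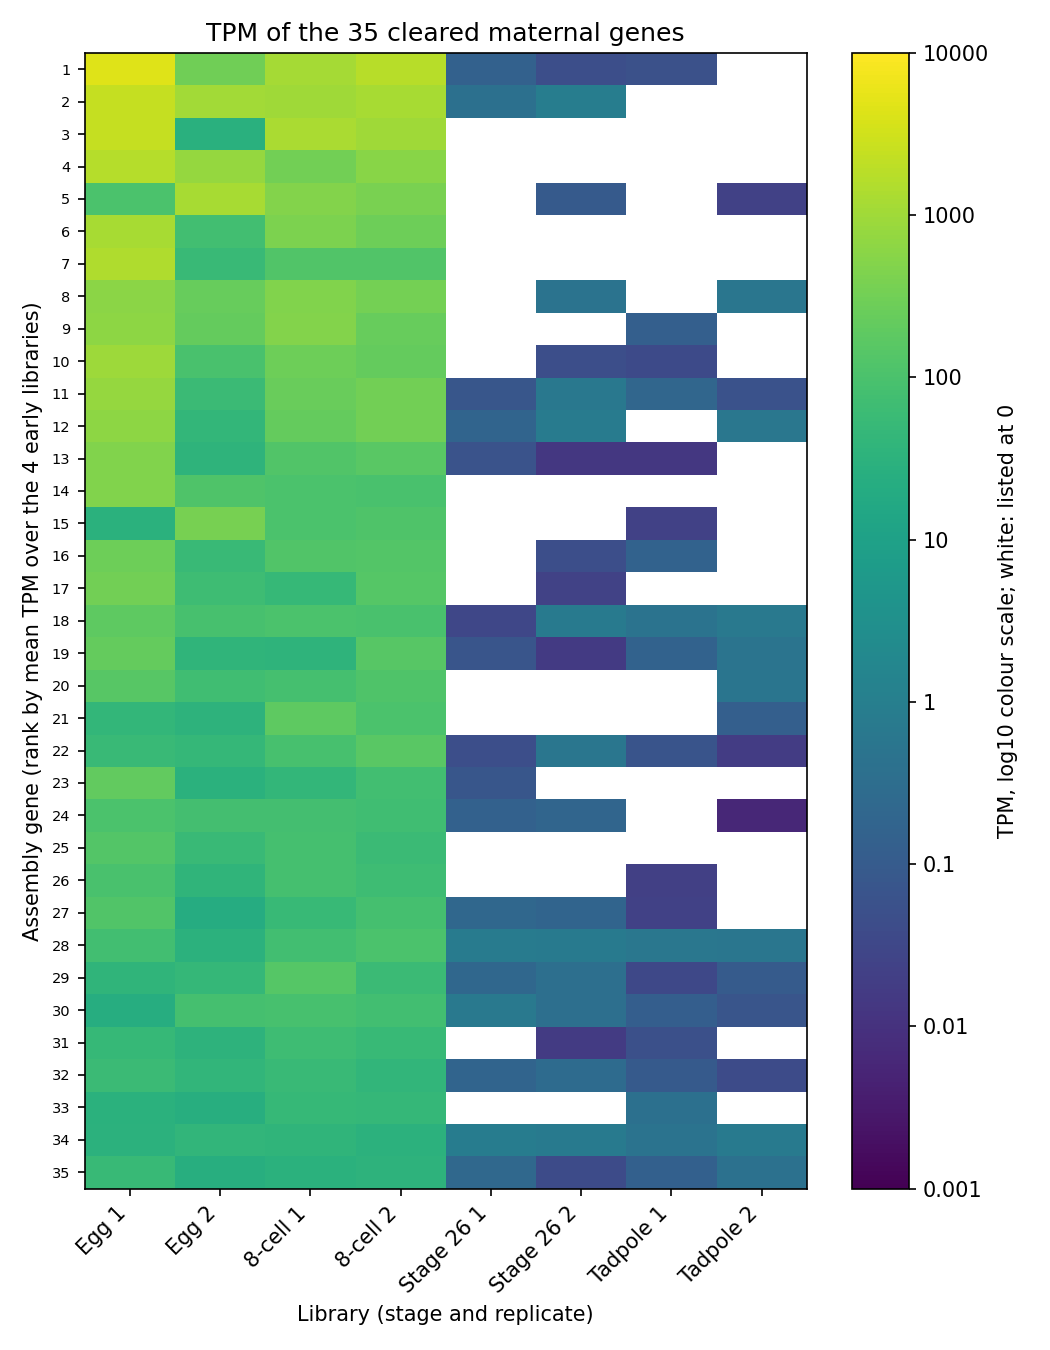
TPM of the 35 cleared genes (rows, by rank of mean TPM over the 4 early libraries) in the 8 libraries (columns, by stage and replicate), on a log10 colour scale; white cells are listed at 0. Every gene is at 20 TPM or more in the first 4 columns and under 1 TPM in the last 4, as the rule demands, with 6 rows white in all late columns.

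The most abundant gene, c103462_g1, had 4483 and 306 TPM in eggs, 1140 and 1775 TPM in 8-cell embryos, 0.147 and 0.047 TPM at stage 26, and 0.054 and 0 TPM in tadpoles. Its late mean was 0.00322% of its early mean. The second, c80136_g1, had 2480 and 1076 TPM in eggs, 993.6 and 1225 TPM in 8-cell embryos, 0.381 and 0.898 TPM at stage 26, and was listed at 0 in both tadpole libraries. Both genes were high in all 4 early libraries, with egg replicate 1 on top, and the second kept its trace at stage 26 only.

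The gene ranked 3 had 2470 and 28.6 TPM in eggs and 1270 and 1003 TPM in 8-cell embryos, and was listed at 0 in all late libraries. Its egg libraries were 86.3-fold apart, the widest gap among the 35 genes, with both 8-cell libraries between them. The gene ranked 5 had the opposite order, with 102 and 1239 TPM in eggs and 514 and 388 TPM in 8-cell embryos. In the late libraries it was listed at 0 in 2 and reached 0.096 TPM at most.

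The genes ranked 6 and 7 were again led by egg replicate 1. The gene ranked 6 had 1240 and 77.7 TPM in eggs and 404 and 286 TPM in 8-cell embryos. The gene ranked 7 had 1464 and 55.9 TPM in eggs and 122.3 and 122.1 TPM in 8-cell embryos. Both were listed at 0 in all 4 late libraries. For the gene ranked 7 the 8-cell libraries differed by 1.00-fold and the egg libraries by 26.2-fold.

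The genes ranked 8 and 9 were steadier. The gene ranked 8 had 591 and 237 TPM in eggs, 465 and 339 TPM in 8-cell embryos, 0 and 0.45 TPM at stage 26, and 0 and 0.544 TPM in tadpoles. The gene ranked 9 had 633 and 226 TPM in eggs and 496 and 243 TPM in 8-cell embryos, and among late libraries was above 0 only in tadpole replicate 1, at 0.132 TPM. For both, the egg range enclosed the 8-cell range.

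Late traces were uneven across genes and small throughout. None of the 4 late libraries held any TPM for 6 of the 35 genes, those ranked 3, 4, 6, 7, 14 and 25; with tadpole replicate 1 set aside there were 10 such genes. A further 8 had a highest late value above 0 and under 0.1 TPM, 11 had one of 0.1 to under 0.5 TPM and 10 one of 0.5 to under 1 TPM. Values above 0 were listed for 17 and 22 of the genes in the stage 26 libraries and for 20 and 16 in the tadpole libraries. A trace in every late library was listed for 10 genes, and a trace above 0.1 TPM in every late library for those ranked 28 and 34.

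The gene ranked 28 had 76.8 and 31.7 TPM in eggs, 75.4 and 104.7 TPM in 8-cell embryos, 0.829 and 0.743 TPM at stage 26, and 0.607 and 0.577 TPM in tadpoles. The gene ranked 34 had 30.8 and 39.8 TPM in eggs, 39.2 and 32.1 TPM in 8-cell embryos, 0.874 and 0.748 TPM at stage 26, and 0.475 and 0.761 TPM in tadpoles. It kept 2.01% of its early mean, the highest share among the 35 genes. In these genes a low level was thus present in all late libraries, while for most others it was present in some and absent in others.

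Between tadpoles and stage 26 the traces had no single direction. Both tadpole libraries lay below both stage 26 libraries for 7 of the genes and above them for 1. The other genes overlapped or were tied, with 6 listed at 0 in all 4 late libraries. The same count was not made over other genes, so no background share stands beside it. There were 6 genes listed at 0 in both stage 26 libraries and above 0 in a tadpole library, and 3 listed at 0 in both tadpole libraries and above 0 at stage 26. All values here are under 1 TPM by the rule, so these counts are a description and were not tested.

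The comparison of 8-cell embryos with unfertilized eggs asks whether the RNA of these genes changed across fertilization and the first cleavages. No gene passed the test. Of the 35 genes, 0 had an adjusted p under 0.05, and neither did any of the 52550 genes tested (0.0%). The test was limma's two-sided moderated one, on log2(TPM + 1) of the 4 early libraries, with Benjamini-Hochberg adjustment over all genes tested. The smallest adjusted p, which 1 of the 35 genes shared, was 0.544 (limma). At an unadjusted p under 0.05 there was 1 of the 35 genes, and 4522 of all genes tested (8.61%), of which 4166 were higher in 8-cell embryos and 356 higher in eggs. The median log2 change of 8-cell embryos over eggs was 0.08 over the 35 genes, 0.09 over the 2636 abundant early genes and 0.45 over all genes tested. The floor of 20 TPM in these 4 libraries holds for the 35 and the 2636, and not for all genes tested. The changes of the 35 genes ran from -1.36 to 2.06 on the log2(TPM + 1) scale, with a median standard error of 0.81. Of the 35 genes, 28 lay within 1 of no change. A change of that size would be about as large as its error, so its absence is not shown. With either egg library left out, the lone one is assumed to vary like the 8-cell pair. Calls among the 35 genes then came only without egg replicate 2, and are not read as changes.

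The direction of the median depended on the scaling. With libraries rescaled by their median ratio, the change had a median of 0.04 over all genes tested and -0.52 over the 35 genes. The sign of the median also followed the egg library used. Without egg replicate 1 it was 0.90 over the 35 genes and 0.44 over all genes tested, and without egg replicate 2 it was -0.86 over the 35 genes and 0.66 over all genes tested. The 35 genes thus lay below all genes or above them, depending on the egg library.

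The gene with the lowest unadjusted p was c79722_g1, ranked 21. It had 187 and 102 TPM in 8-cell embryos, against 41.8 and 33.5 TPM in eggs. The log2 change was 1.85 (SE 0.65, adjusted p = 0.544, limma). Both 8-cell libraries lay above both egg libraries, without a gene-wide call. It was listed at 0 in 3 late libraries and at 0.134 TPM in tadpole replicate 2.

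The gene c8617_g1, ranked 22, had 94.3 and 161 TPM in 8-cell embryos, against 54.0 and 45.3 TPM in eggs (log2 change 1.30, SE 0.63, adjusted p = 0.633, limma). Its egg libraries were close to each other and below both 8-cell libraries. The other 3 genes with both 8-cell libraries above both egg libraries were those ranked 29, 31 and 33, with log2 changes of 1.10, 0.53 and 0.77 and no call. Together these were 5 of the 35 genes, against 33.8% of all genes tested and 21.1% of the 2636 abundant early genes. All genes tested include genes under 20 TPM in eggs, which the rule keeps out of the 35. Of 126 genes chosen without the egg libraries, 91 were under 20 TPM in an egg library.

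Both 8-cell libraries lay below both egg libraries for 2 of the 35 genes, against 5.13% of all genes tested and 13.7% of the abundant early genes. Again, only the abundant early genes share the floor of 20 TPM with the 35. One was c120573_g2, ranked 4, with 331 and 572 TPM in 8-cell embryos, against 1645 and 763 TPM in eggs (log2 change -1.36, SE 0.74, adjusted p = 0.674, limma). The other was c97436_g1, ranked 14, with 104 and 99.5 TPM in 8-cell embryos, against 460 and 118 TPM in eggs (log2 change -1.19, SE 0.83, adjusted p = 0.774, limma). Neither had any TPM listed in a late library. The lower of the egg values of c97436_g1 was close to its 8-cell values, so most of the difference came from egg replicate 1. With median-of-ratios scaling, the genes with both 8-cell libraries above both egg libraries were 2 and those with both below were 9, so this split turns with the scaling. It also turned with the egg library: without egg replicate 1 there were 24 above and 5 below, and without egg replicate 2 there were 9 above and 25 below. With a library left out, fewer values need to lie apart, so these counts can only rise. Shares over all genes were not made under these settings, and the shares above do not apply to them.

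For most of the 35 genes the 8-cell values fell inside the spread of the egg libraries. The 2 egg values enclosed both 8-cell values for 21 genes (60%), against 31.0% of the 2636 abundant early genes, and the ranges overlapped in part for 7. The median gap was 2.79-fold between the egg libraries and 1.33-fold between the 8-cell libraries (on TPM + 1), against 1.81-fold and 1.37-fold over the abundant early genes. The egg libraries were over 4-fold apart for 15 of the 35 genes (42.9%) and for 14.6% of the abundant early genes, and the 8-cell libraries for 1 of the 35. These summaries were chosen after the values were seen, and the difference between the 35 and the other genes was not tested.

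The wide gaps ran mostly one way. Egg replicate 1 was above egg replicate 2 for 30 of the 35 genes (85.7%), against 64.2% of the abundant early genes and 42.1% of all genes tested. It was the highest of the 4 early libraries for 25 genes (71.4%), against 42.3% of the abundant early genes. The highest was 8-cell replicate 1 for 5, egg replicate 2 for 3 and 8-cell replicate 2 for 2. Among the abundant early genes these shares were 25.5%, 15.6% and 16.6%. At least 10-fold more in egg replicate 1 than in replicate 2 was listed for 7 genes, those ranked 1, 3, 6, 7, 11, 12 and 13. At least 10-fold more in egg replicate 2 was listed for 2, those ranked 5 and 15. The rule itself bounds the lower egg value at 20 TPM, so wider gaps were possible only for abundant genes.

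The genes ranked 11 to 13 show the same form at lower levels. The gene ranked 11 had 252 and 319 TPM in 8-cell embryos, against 803 and 60.3 TPM in eggs. The gene ranked 12 had 217 and 326 TPM in 8-cell embryos, against 661 and 43.0 TPM in eggs. The gene ranked 13 had 125 and 162 TPM in 8-cell embryos, against 464 and 36.3 TPM in eggs. In each the egg libraries lay far to either side of a close 8-cell pair.

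The gene ranked 15 lay the other way round, with 107 and 120 TPM in 8-cell embryos, against 30.4 and 372 TPM in eggs. The order of the 35 genes by level was better kept between the 8-cell libraries (Spearman rho 0.80) than between the egg libraries (0.37). An egg and an 8-cell library had a rho of 0.53 to 0.78. These correlations run over the same 35 genes, which share libraries and were chosen by level, and are given as a description.

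**Figure D3:**
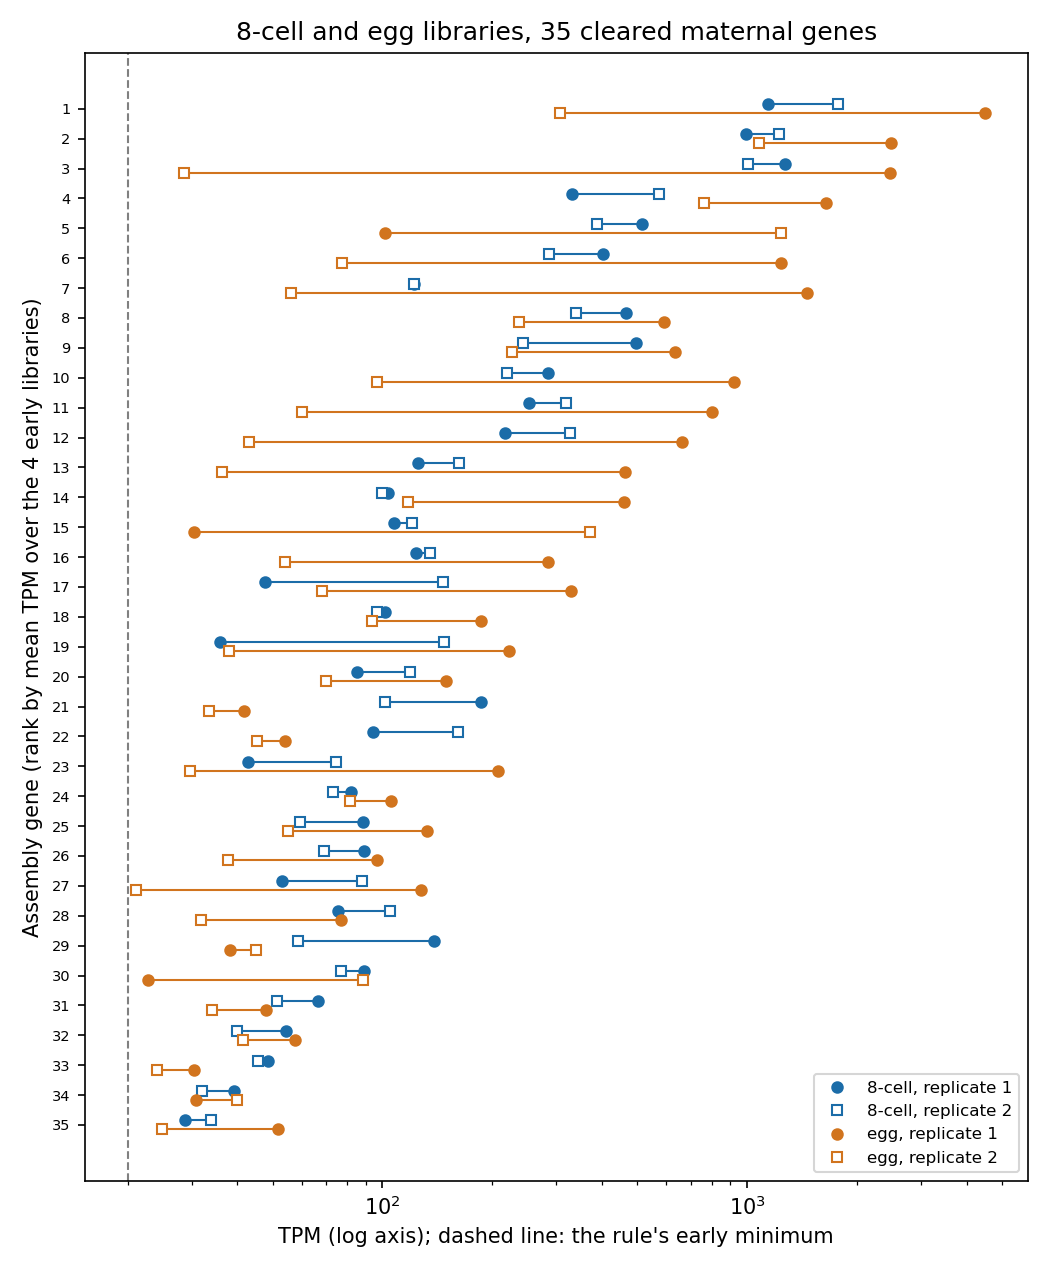
TPM (horizontal log axis) of the 35 cleared genes (vertical axis, by rank) in the 2 8-cell libraries (blue) and the 2 egg libraries (orange); circles are replicate 1, squares replicate 2, lines join the replicates of a stage, and the dashed line is the limit of 20 TPM. The blue pairs are within 1.5-fold for 25 genes. They lie inside the orange pairs for 21 genes, and egg replicate 1 is the right end of the orange pair in 30.

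The number of genes found depended on the egg libraries more than on any other. With egg replicate 1 left out of the rule, 65 genes were chosen, of which 30 were under 20 TPM in that library. With egg replicate 2 left out there were 63, of which 28 were under 20 TPM in it. Leaving out an 8-cell library gave 37 or 36 genes. Leaving out stage 26 replicate 2 gave 45, of which 10 were at 1 TPM or more in it, up to 15.2 TPM. Stage 26 replicate 1 and tadpole replicate 1 excluded no gene on their own, and tadpole replicate 2 alone excluded 1, at 1.49 TPM. Genes over the limit in more than 1 late library are not counted here.

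With both egg libraries left out, an alternative added after the data were seen, 126 of 5472 genes (2.30%) at 20 TPM or more in both 8-cell libraries were under 1 TPM in all late ones. Of these, 35 were at 20 TPM or more in both egg libraries, 30 were under it in egg replicate 1 only, 28 in egg replicate 2 only, and 33 in both. With both 8-cell libraries left out, 41 of 2945 genes (1.39%) at 20 TPM or more in both egg libraries were chosen. The share lost was thus low from either early stage, and the 35 are the part on which both agree.

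**Figure D4:**
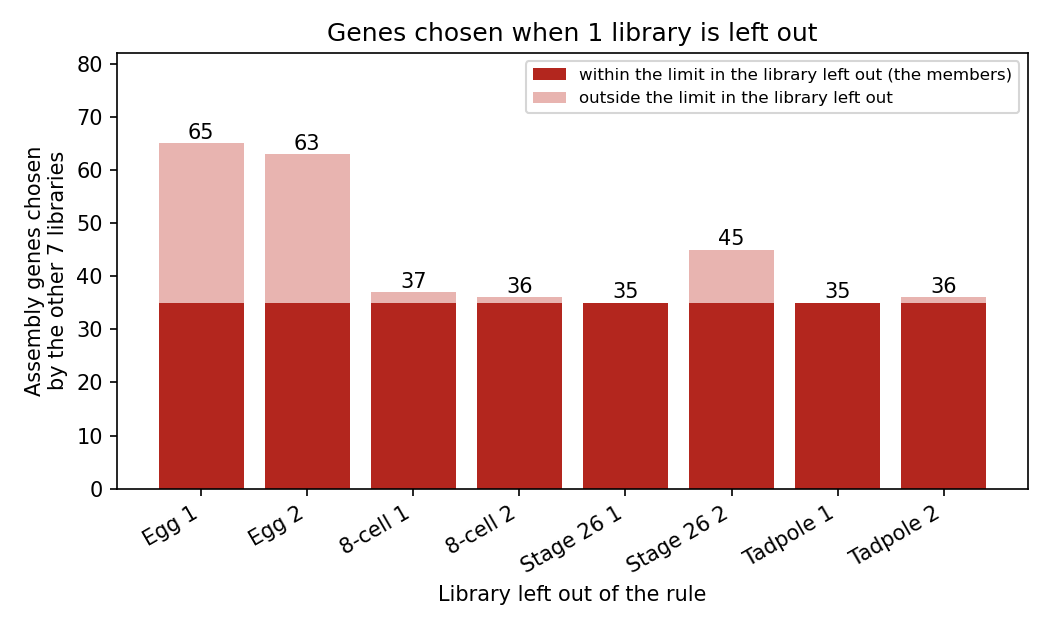
Number of assembly genes (vertical axis) that the other 7 libraries choose when the named library (horizontal axis) is left out of the rule, divided into those within its limit in that library (dark, always the 35) and those outside it (pale). Pale parts are large for egg replicate 1 (30), egg replicate 2 (28) and stage 26 replicate 2 (10).

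Values in the late stage that a choice had not used show how far the low level held at that stage. Chosen from the early and stage 26 libraries alone, 38 genes were found, and 35 of them (92.1%) were also under 1 TPM in both tadpole libraries. The 3 others reached 1.49, 3.28 and 4.36 TPM in their higher tadpole library, so none returned to its early level. Chosen from the early and tadpole libraries alone, 57 genes were found, and 35 of them (61.4%) were under 1 TPM in both stage 26 libraries. Of the 22 others, 12 were at 1 TPM or more in both stage 26 libraries and 10 in replicate 2 only. In the higher stage 26 library these 22 genes ran from 1.03 to 56.1 TPM, with a median of 3.48 TPM.

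One of these genes, not among the 35, still had 25.3 and 56.1 TPM at stage 26. It had 597 and 678 TPM in eggs, 305 and 426 TPM in 8-cell embryos, and 0.235 and 0.390 TPM in tadpoles. Its level at stage 26 lay between the early and the tadpole level in every library. It reached the low level after stage 26, and the limit at stage 26 keeps it out of the 35.

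Both limits cut through a run of close values, though the genes on either side of a limit were not alike in other libraries. The 5 of the 35 genes with the highest late value had 0.752, 0.825, 0.829, 0.874 and 0.898 TPM in their highest late library. The 5 genes just outside had 1.03, 1.10, 1.11, 1.28 and 1.33 TPM there. The first of these 5 was far more abundant early, with 402 and 24179 TPM in eggs and 714 and 9422 TPM in 8-cell embryos. The 5 with the lowest early value had 21.1, 22.7, 24.1, 24.8 and 28.6 TPM in their lowest early library, and the 5 just outside had 19.3, 19.3, 18.9, 18.7 and 17.7 TPM. For all 10 genes next to the early limit, the lowest early library was an egg library.

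The 35 genes held 56 transcripts. Of these genes, 20 had 1 transcript, 10 had 2, 4 had 3 and 1 had 4, so 15 (42.9%) had more than 1, against 34.2% of the abundant early genes. In 10 of the 15, the same transcript was the most abundant in all 4 early libraries, against 75.5% of the abundant early genes with more than 1 transcript. The leading transcript of these 15 held 40.4% to 84.1% of the gene's early mean. A transcript here is an assembled sequence, and the estimate for one depends on how reads shared with its neighbours were divided.

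In 5 genes the leading transcript changed between libraries, those ranked 1, 12, 15, 31 and 34. In the gene ranked 34, transcript i1 held 64.1% and 70.4% of the TPM in 8-cell embryos, against 1.05% and 35% in eggs. Transcript i2 held the rest, with 14.1 and 9.47 TPM in 8-cell embryos, against 30.5 and 25.9 TPM in eggs. This was the one of the 5 whose leading transcript was the same within each stage and differed between the stages. At stage 26 its trace was listed under i1, at 0.873 and 0.748 TPM, with i2 at 0.001 and 0 TPM. In tadpoles i1 had 0 and 0.438 TPM and i2 had 0.475 and 0.323 TPM.

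In the gene ranked 15, transcript i1 was listed at 0 in egg replicate 1 and held 59.8% of the TPM in egg replicate 2. In 8-cell embryos it held 24.6% and 25.7%. The egg libraries here differed in which transcript they held as well as in level. In c103462_g1, transcript i3 led in both 8-cell libraries with 55.1% and 58.2%, against 41.1% and 54.4% in eggs, where i2 led in replicate 1 with 51.5%. No test was made on these shares, which were singled out after their values were seen.

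**Figure D5:**
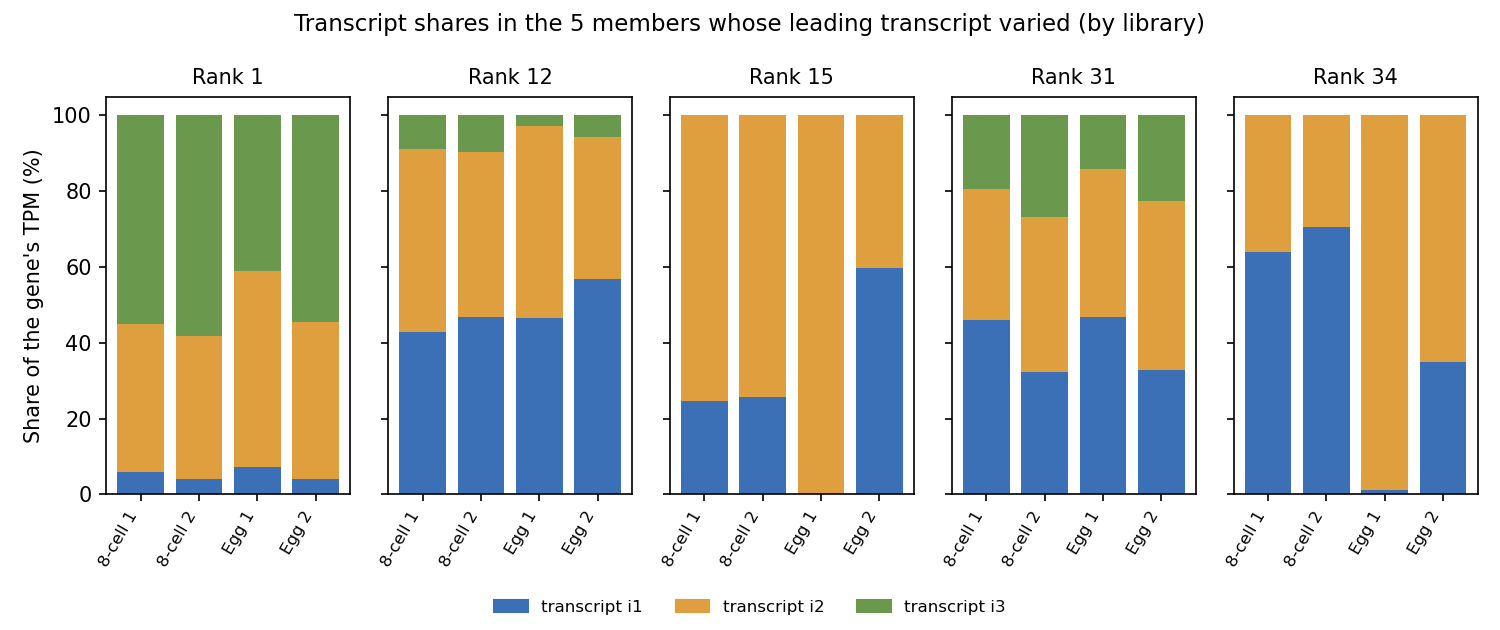
Share of the TPM of the gene (vertical axis, percent) held by each assembled transcript (colours) in the 2 8-cell and 2 egg libraries (horizontal axis), for the 5 genes whose leading transcript was not the same in all 4. In the gene ranked 34, transcript i1 holds 64.1% and 70.4% in 8-cell embryos and 1.05% and 35% in eggs.

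Each of the 35 genes came from an assembly component of its own, and 5 of these components (14.3%) held further assembly genes, against 32.1% of the abundant early genes. A component groups sequences that share stretches, such as gene copies, alleles or fragments of one gene, and the files do not say which. The 5 components held 11 further genes, of which 8 were at 1 TPM or more in a late library. Reads of such neighbours may have been divided between them, so the values of these 5 genes are less certain.

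The neighbours fell into different patterns. In the component of c120573_g2, one neighbour had 756 and 341 TPM in eggs, 254 and 247 TPM in 8-cell embryos, 3.24 and 4.51 TPM at stage 26, and 1.82 and 1.87 TPM in tadpoles. It was thus abundant early and low late like c120573_g2, but was above 1 TPM in every late library, where c120573_g2 was listed at 0. The neighbour of the gene ranked 19 had 577 and 80.9 TPM in eggs and 112 and 345 TPM in 8-cell embryos, and passed every limit except in tadpole replicate 2, with 1.49 TPM. The gene ranked 19 itself had 222 and 37.8 TPM in eggs and 35.8 and 148 TPM in 8-cell embryos, with the same order of libraries except at its lowest values.

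The single neighbour of c79722_g1 had 24.4 and 14.2 TPM in 8-cell embryos, against 8.18 and 5.10 TPM in eggs, and was listed at 0 in all late libraries. It had both 8-cell libraries above both egg libraries, as c79722_g1 did. The neighbours of the gene ranked 20 were likewise low early and under 1 TPM late. By contrast, the 5 neighbours of the gene ranked 28 each reached 1 TPM or more in a late library. One had 8.07 and 5.91 TPM in eggs, 8.21 and 11.3 TPM in 8-cell embryos, 12.7 and 7.27 TPM at stage 26, and 8.45 and 10.99 TPM in tadpoles, above the gene ranked 28 in every late library and below it in every early one.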

How the data were processed

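The authors deposited TPM per assembled transcript; the submitters' processing notes name kallisto 0.42.4. Which transcript sequences and filters went in is not stated in the labels. Strand-specific libraries were made from TRIzol-extracted RNA after poly-A capture, per the labels' protocols. Columns were matched to samples by title, and groups and replicate numbers came from the source names. TPM was summed over transcripts whose identifiers differ only in the last number. The cleared genes had at least 20 TPM in the 4 early and under 1 TPM in the 4 late libraries; the limit of 300 genes was not reached. The members and tests were chosen with earlier results of these data known.

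Genes with at least 1 TPM in 2 of the 4 early libraries (52550, all 35 members included) were tested on log2(TPM + 1) with limma 3.58.1 in R 4.3.3, with trended moderated variances, 2 residual and 3.43 prior degrees of freedom. The pseudocount makes fold changes of low genes too small. The late libraries were left out of the fit, since the rule puts the members near 0 there, which would shrink their estimated spread. With 2 libraries against 2, the smallest p of an exact two-sided permutation test is 0.333, so levels and sums are given with their spread and no test. Identifiers are printed for the 2 members with the highest early mean, and for the 2 largest positive and 2 largest negative log2 changes among members whose 8-cell and egg libraries do not overlap. Alternatives covered the pseudocount, the filter, scaling, variance prior, libraries fitted, replicate number as a block, limits of the rule and each library left out. Tables were handled in Python 3.11.15 with scipy 1.17.1, numpy 2.4.6 and pandas 2.3.3; matplotlib 3.10.9 drew the figures. TPM keeps no read totals, so depth is unknown. Gene lists were not applied, since no identifier is paired with a gene name.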

Additional observations from a re-analysis of the deposited data

How the results depend on the processing

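The count of cleared genes was 69 with an early minimum of 10 TPM, 16 with 50 TPM, 6 with a late limit of 0 TPM and 126 without the 2 egg libraries; it ranged from 35 to 65 with 1 library left out. Of the 35 genes, 34 also passed under median-of-ratios scaling. In the test of 8-cell embryos against eggs, the count over all genes ranged from 0 to 16097 with 1 library left out, and that over the 35 genes from 0 to 15. The highest counts came without egg replicate 2, where the lone egg library is assumed to vary like the 8-cell pair: 13861 genes were then higher in 8-cell embryos and 2236 in eggs, and of the 35 genes 4 and 11. No gene of the 35 passed under any other setting. The replicate numbers mark no stated pairing; across the genes tested, the differences between replicates correlated at 0.19 between the stages, and with the number as a replicate block 2 genes passed, neither among the 35. Genes among the 35 with both 8-cell libraries above both egg libraries were 2 with median-of-ratios scaling and 6 to 24 with 1 library left out. Those with both below were 4 after quantile normalization, 9 after median-of-ratios scaling and 4 to 25 with 1 left out. Leaving out a library can only raise both counts, and shares over all genes were not made under these settings. The median log2 change of the 35 ranged from -0.86 to 0.90 with 1 left out. The log2 change of c103462_g1 was -0.33 with median-of-ratios scaling and ranged from -1.66 to 2.21 with 1 library left out. That of c80136_g1 ranged from -1.17 to 0.036. Without egg replicate 2, the log2 change was -1.66 for c103462_g1, 1.70 for c79722_g1, -1.91 for c120573_g2 and -2.17 for c97436_g1. Without egg replicate 1, it was 2.21, 2.01, -0.81 and -0.21 in the same order. Genes listed at 0 in all late libraries were 7 to 10 with 1 late library left out, the 10 without tadpole replicate 1. The causes were not tested.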
